A study of Mus musculus with 12 samples.

Results

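Knockdown of Esrra was added to knockdown of Hcfc1 in Hepa 1-6 cells, a mouse hepatoma line, and the 3 libraries of the combined knockdown (siERRa+siHCFC1) were compared across all genes with the 3 libraries of the Hcfc1 knockdown alone (siHCFC1). These are 6 of the 12 libraries of the study, taken by their group labels. The remaining 6 are 3 that received a scrambled control pool (siC) and 3 that received the Esrra pool alone (siERRa). They are used below to set the same addition beside cells not given the Hcfc1 pool. The labels describe the line as a hepatocyte line of wild-type genotype, and no group carries an engineered allele. In every group, 400000 cells were plated on a 6 cm dish, given 100 nM siRNA and given it again after 48 h, a total of 200 nM, and RNA was taken at 96 h. The labels do not say how much of that total each pool made up in the combined group. They also leave out whether replicate libraries stem from different dishes. The p-values of the main fit measure the spread left once group and library number are fitted, moderated across genes. That spread may be technical. The library kit did not mark the strand, and reads of overlapping genes on opposite strands cannot be told apart.

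ERRα, the product of Esrra, is an orphan nuclear receptor that binds DNA at a short response element and, with the coactivators PGC-1α and PGC-1β, is best known as an activator of genes of mitochondrial respiration and fatty acid oxidation. HCFC1, host cell factor C1, does not bind DNA itself. It is a chromatin-bound cofactor that links DNA-binding factors to histone-modifying complexes, with known roles in cell cycle progression and in metabolic genes of the liver.

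Total counts ran from 21370424 to 29125064 in the siHCFC1 libraries and from 22970759 to 28601065 in the combined libraries. The mitochondrially encoded share of counts was 6.72%, 10.3% and 3.21% in siHCFC1 libraries 1, 2 and 3 and 6.47%, 14.5% and 3.59% in the combined libraries, so it followed the library number more than the group. Levels are given as CPM (counts scaled to library size) after TMM scaling, listed in the order of library number. Of 10 hepatocyte and hepatoma markers, 8 were expressed well enough to be tested, with a summed level of 5128 to 8300 CPM in siHCFC1 and 6181 to 10009 CPM in the combined libraries, and Serpina1b was at 0. Of the markers of other cells, 2 of 10 macrophage, 2 of 10 endothelial, 4 of 10 fibroblast and 8 of 10 cholangiocyte genes could be tested. C1qa, C1qb, Clec4f, Marco, Acta2, Col1a2, Lrat and Lum were at 0. The summed fibroblast level, nearly all of it the proteoglycan Dcn, was 4114 to 7844 CPM against 3611 to 5914 CPM. Of these 4 genes Dcn was called lower (log2 change -0.37) and the muscle filament gene Des higher (1.18), both lost without library 1 and without library 2.

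The targeted genes came first. Esrra (chromosome 19, 6910977 to 6921813, minus strand, mm10) stood at 46.4, 64.5 and 59.1 CPM in siHCFC1 and at 18.9, 20.5 and 12.5 CPM in the combined libraries. Every combined library was below every siHCFC1 library, and the log2 change was -1.73 ± 0.18 (SE; edgeR quasi-likelihood test, Benjamini-Hochberg adjusted p = 9.2e-05). Hcfc1 (chromosome X, 73942792 to 73966357, minus strand) stood at 96.5, 126 and 66.2 CPM in siHCFC1 and at 119, 131 and 88.7 CPM in the combined libraries. These ranges overlapped, and each combined library was above the siHCFC1 library of its number, with a log2 difference of 0.26 ± 0.11 that did not pass the threshold (adjusted p = 0.26). The siC libraries held 173 ± 28.2 CPM of Hcfc1 (SD, n = 3). In siERRa against siC, Esrra changed by -2.02 and the median of the 2 targets was -1.16. Hcfc1 was thus also below 0 there, without a call. The share that a weaker Hcfc1 knockdown in the combined group has in the results below was not tested. Among called genes with a mean of at least 5 TPM (a level scaled to gene length and library size) in siC or siHCFC1 and no predicted name, Ttc41 rose most with the Hcfc1 pool and had 1.77 CPM in siC, 72.4 ± 19.6 CPM in siHCFC1 and 69.4 ± 24.0 CPM in the combined group (SD, n = 3). Lmnb2, which encodes lamin B2 and fell most under the same limits, had 23.7, 1.32 and 1.43 CPM in the same groups. Gna15 and Zfp383, also among the largest falls, had 0.199 and 0.633 CPM in siHCFC1 and 0.714 and 1.98 CPM in the combined group. None of the 4 largest rises and 4 largest falls with the Hcfc1 pool under these limits was called between siHCFC1 and the combined group. Below the TPM limit, the zinc finger gene Zfp111 fell further, from 11.7 CPM in siC to 0.202 CPM in siHCFC1, and had 2.06 CPM in the combined group (adjusted p = 0.106, edgeR, and called higher in the fit of all 12 libraries); it was picked after its values were seen.

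Adding the Esrra pool lowered more genes than it raised. Of 14663 genes tested with the library number as a block, 519 passed an adjusted p of 0.05 (3.54%), 160 of them higher (1.09%) and 359 lower (2.45%) in the combined libraries. The changes were mostly moderate, with a median fold of 1.68 among the rises and 1.56 among the falls, and 40 rises and 54 falls exceeded 2-fold. All 160 rises and 358 of the 359 falls had the same direction in each of the 3 numbered pairs. The libraries of the 2 groups did not overlap for 101 of the rises and 201 of the falls; among all genes tested, 6.04% did not overlap in the upward and 5.57% in the downward direction. The block decided the count: without it edgeR called 0 genes (772 at an unadjusted p under 0.05) and DESeq2 called 47 (0.321%), against 761 (5.19%) for DESeq2 with the block. With the block and without libraries 1, 2 or 3 of both groups, 602, 329 and 708 genes were called. The authors' deposited table for the same comparison has 35 genes at an adjusted p below 0.05, 11 higher and 24 lower, and 32 of them were called in the same direction in the blocked test. A value given below as a change is from the blocked test on the 6 libraries unless another comparison is named. Counts called in a gene list stand beside the shares of all tested genes, 2.45% lower and 1.09% higher.

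**Figure D1:**
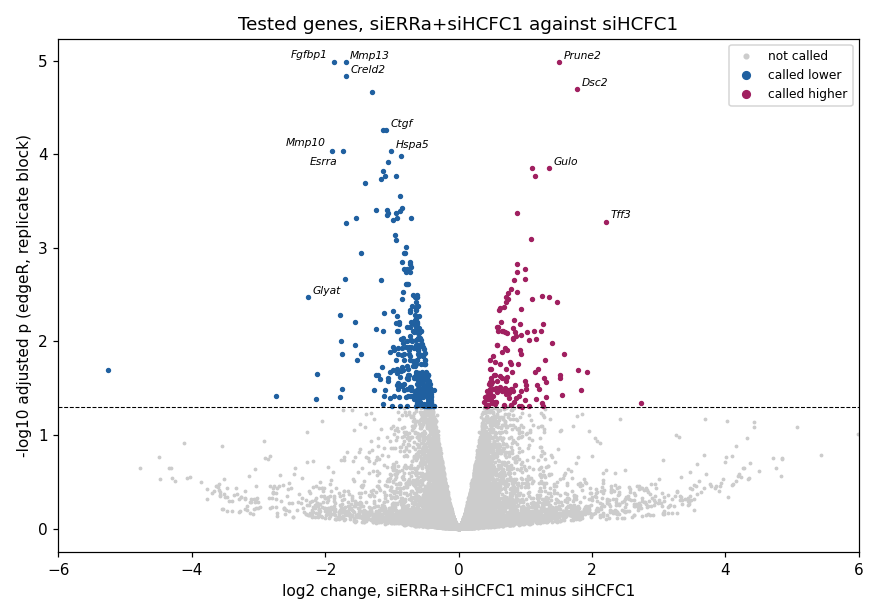
Each point is a tested gene, with its log2 change (combined minus siHCFC1) on the x axis and −log10 of its adjusted p on the y axis; the dashed line marks an adjusted p of 0.05, and 10 genes beyond ±6 on the x axis, none of them called, are not drawn. Falls (blue, 359) outnumber rises (purple, 160), and Fgfbp1, Mmp13 and Prune2 have the smallest adjusted p.

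Most measured protein-folding genes of the endoplasmic reticulum (ER) fell. In the unfolded protein response, an overload of the ER lumen releases the sensors IRE1, PERK and ATF6 and raises chaperones, disulfide isomerases and the machinery that removes misfolded proteins. All 21 genes of this list had a log2 change below 0, with a median of -0.62 against 0.00 for all tested genes; 13 were called lower and 0 higher, and the called members changed by -1.69 to -0.59. All 13 were lower in each numbered pair, and for 8 the groups did not overlap, as for 201 of all 359 called falls. The list medians of pairs 1, 2 and 3 were -0.47, -0.84 and -0.52, and without libraries 1, 2 or 3 the calls were 16, 11 and 14. Library 2 of siHCFC1 held the highest siHCFC1 level of each of the 5 ER genes given by library below, and that library also had the highest mitochondrial share of its group; the part of that library's RNA in the result was not tested beyond leaving the pair out.

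Among the chaperones, Hspa5 (chromosome 2, 34771970 to 34777547, plus strand), the ER HSP70 known as BiP, had 3436, 6564 and 3860 CPM in siHCFC1 and 2067, 2822 and 1817 CPM in the combined libraries. No combined library reached the lowest siHCFC1 library, and the log2 change was -1.02 ± 0.10 (adjusted p = 9.17e-05, edgeR). The siC libraries held 1530 ± 238 CPM of Hspa5 and the siERRa libraries 1289 ± 228 CPM (SD, n = 3), so the combined group lay between these and siHCFC1. Hsp90b1, the ER HSP90 known as GRP94, fell from 2585, 4157 and 2387 CPM to 1655, 2379 and 1499 CPM, a log2 change of -0.71 (adjusted p = 0.000486). Its groups did not overlap, if narrowly. Calr, the lectin chaperone calreticulin, changed by -0.62, and Hyou1, which exchanges nucleotide on BiP, by -0.79.

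Creld2 (chromosome 15, 88819646 to 88826683, plus strand), a secreted ER stress protein, showed the largest fall of the list. It had 75.0, 190 and 96.9 CPM in siHCFC1 and 25.0, 45.1 and 36.9 CPM in the combined libraries, a log2 change of -1.69 ± 0.14 (adjusted p = 1.45e-05, edgeR). Manf (chromosome 9, 106838312 to 106891979, minus strand), a secreted trophic factor retained in the ER, had 184, 307 and 239 CPM against 120, 121 and 99.6 CPM, a change of -1.08 ± 0.14 (adjusted p = 0.000447). Both genes had groups that did not overlap. Sdf2l1, a BiP cofactor, went from 14.4, 21.9 and 21.4 CPM to 5.6, 8.23 and 7.05 CPM, a change of -1.47 (adjusted p = 0.00113). The disulfide isomerases Pdia3, Pdia4 and Pdia6, the co-chaperone Dnajb11, and Edem1 and Sel1l, which serve the removal of misfolded proteins, were also called lower, Dnajb11 and Sel1l not without library 2. The sensor Atf6 and the transcription factor Xbp1 were not called.

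The 5 called genes of this list whose promoter window holds the ER stress element are shown because the element is the binding site of ATF6 and NF-Y that the family is known for. Each line gives the 250 bases before the start site from RefSeq (GRCm38.p6, the assembly of mm10), 5′ to 3′ on the gene's strand, with the fixed letters of the element in capitals; in Hsp90b1 the letters of a sterol regulatory element are also in capitals.
Hspa5 (chr2:34771840-34772089, plus strand): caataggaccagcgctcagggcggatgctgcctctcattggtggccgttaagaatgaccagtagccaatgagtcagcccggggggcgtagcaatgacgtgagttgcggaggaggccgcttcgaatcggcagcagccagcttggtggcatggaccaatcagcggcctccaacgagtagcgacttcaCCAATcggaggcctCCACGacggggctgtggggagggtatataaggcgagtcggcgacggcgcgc
Creld2 (chr15:88819396-88819645, plus strand): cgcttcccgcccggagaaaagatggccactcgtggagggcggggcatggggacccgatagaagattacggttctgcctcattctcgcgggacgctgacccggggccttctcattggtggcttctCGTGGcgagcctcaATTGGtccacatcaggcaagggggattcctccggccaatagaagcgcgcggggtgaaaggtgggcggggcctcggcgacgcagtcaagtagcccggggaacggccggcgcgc
Hsp90b1 (chr10:86705445-86705694, minus strand): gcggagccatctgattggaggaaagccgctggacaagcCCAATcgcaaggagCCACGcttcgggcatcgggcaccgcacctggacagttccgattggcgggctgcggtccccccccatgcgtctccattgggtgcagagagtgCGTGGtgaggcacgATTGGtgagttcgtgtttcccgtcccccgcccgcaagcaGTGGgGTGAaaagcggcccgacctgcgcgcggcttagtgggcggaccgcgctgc
Calr (chr8:84846932-84847181, minus strand): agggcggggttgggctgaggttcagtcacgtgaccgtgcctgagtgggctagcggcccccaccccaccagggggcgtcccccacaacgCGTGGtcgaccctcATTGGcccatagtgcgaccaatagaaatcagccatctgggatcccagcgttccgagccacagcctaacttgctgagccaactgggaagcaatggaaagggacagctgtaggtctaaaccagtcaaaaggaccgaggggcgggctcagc
Pdia6 (chr12:17266339-17266588, plus strand): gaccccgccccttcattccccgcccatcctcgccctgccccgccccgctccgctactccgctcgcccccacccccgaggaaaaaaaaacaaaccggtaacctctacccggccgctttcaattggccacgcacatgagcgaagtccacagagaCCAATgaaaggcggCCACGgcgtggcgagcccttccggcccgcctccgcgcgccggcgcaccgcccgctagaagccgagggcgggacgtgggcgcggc

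The search took CCAAT and CCACG with 9 bases of any kind between them, on both strands, over windows from 250 bases before to 50 after each start. The element began 65 bases before the start in Hspa5, 126 in Creld2, 162 in Calr, 98 in Pdia6, and 212 and 107 in Hsp90b1. It was in 5 of the 11 called ER genes with a window, in 8 of the 17 measured ER genes with one and in 21 of 10057 tested genes with one (0.209%). Among all called genes with a window it was in 6 of the 272 lower ones and in 0 of the 114 higher ones. The 6 include the 5 called ER genes shown above, so the 2 counts overlap. All are matches of letters, not measured binding.

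**Figure D2:**
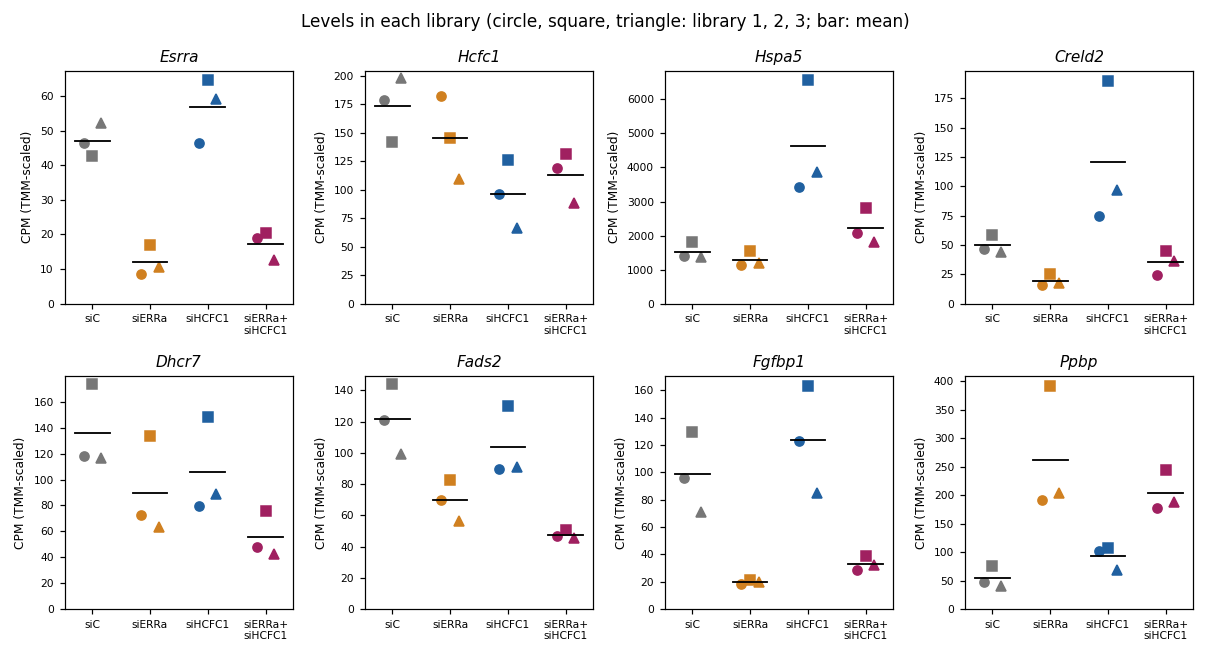
CPM after TMM scaling (y axis, linear from 0) of 8 genes in the 12 libraries; markers give the library number and bars the mean of 3 libraries. Esrra is low in both groups with the Esrra pool, Hspa5 and Creld2 are highest in siHCFC1, and library 2 of siHCFC1 is the highest siHCFC1 library in every panel.

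Most genes of cholesterol synthesis and uptake fell as well. The pathway builds cholesterol from acetyl-CoA by way of mevalonate and squalene, and when ER sterol is low the factor SREBP2 is known to raise its enzymes and sterol uptake. Of 26 genes measured, 25 had a log2 change below 0 and the median was -0.71 against 0.00 for all tested genes. Called lower were 18 (69.2%) and higher 0, with changes of -1.24 to -0.43. All 18 were lower in each numbered pair, and 12 had groups that did not overlap, as did 201 of all 359 called falls. Pair medians were -0.46, -0.85 and -0.57. Without libraries 1, 2 or 3 the list had 19, 10 and 17 calls, so this count changed by over 1.5 times without library 2. Over all tested genes the calls went from 519 to 329 without that library.

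Along the pathway, Acat2, Hmgcs1, Pmvk and Idi1 of the steps up to isopentenyl units were called lower, as were Fdft1, Sqle and Lss, which make squalene and close it to lanosterol, and Cyp51, Msmo1, Nsdhl and Dhcr7 of the last steps. Dhcr7 (chromosome 7, 143823145 to 143848410, plus strand), the final reductase, had 79.4, 148 and 89.0 CPM in siHCFC1 and 48.0, 75.5 and 42.4 CPM in the combined libraries, a log2 change of -0.93 ± 0.12 (adjusted p = 0.000486, edgeR). The highest combined library was just below the lowest siHCFC1 library. Of the regulators, Srebf2, which encodes SREBP2, Insig1, which retains it in the ER, and Stard4, a cholesterol carrier, were called lower. Scap, its escort, had the only change above 0 in the list, 0.25, and was not called. Cyp51, Srebf2, Stard4, Pmvk, Nsdhl and Insig1 lost the call without library 2, Stard4 also without library 1 and in the fit of all 12 libraries, and Acat2 without library 3; Pmvk was also lost with RLE scaling.

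The ERR half-site AAGGTCA was found in the windows of 2 of the 11 called cholesterol genes that have one, Dhcr7 and Hmgcs1, whose 250 bases before the start are given in the same form with the half-site in capitals. In Hmgcs1 the sterol regulatory element TCACNCCAC is in capitals too.
Dhcr7 (chr7:143822917-143823166, plus strand): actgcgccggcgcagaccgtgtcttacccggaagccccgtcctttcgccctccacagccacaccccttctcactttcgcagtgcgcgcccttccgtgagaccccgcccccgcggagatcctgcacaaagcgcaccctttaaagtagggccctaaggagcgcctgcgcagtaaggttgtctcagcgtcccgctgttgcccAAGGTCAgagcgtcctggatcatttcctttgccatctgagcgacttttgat
Hmgcs1 (chr13:119690101-119690350, plus strand): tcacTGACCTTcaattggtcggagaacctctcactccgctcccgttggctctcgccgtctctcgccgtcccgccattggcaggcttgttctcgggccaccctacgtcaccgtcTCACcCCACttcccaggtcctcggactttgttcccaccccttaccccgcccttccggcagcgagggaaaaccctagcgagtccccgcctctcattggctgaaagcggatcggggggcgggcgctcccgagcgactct

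On either strand the half-site was in 10 of the 272 called-lower genes with a window (3.68%), in 6 of the 114 called-higher ones (5.26%) and in 413 of the 10057 tested ones (4.11%). The longer form TCAAGGTCA was in 33 of the tested genes (0.328%) and in 0 of the called ones. The sterol element was in 142 tested genes (1.41%) and in 3 of the 272 called-lower ones with a window (1.10%). It was in 1 of the 11 called cholesterol genes with a window, Hmgcs1, and in the called ER gene Hsp90b1. Absence from a window of this size says nothing of binding elsewhere.

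**Figure D3:**
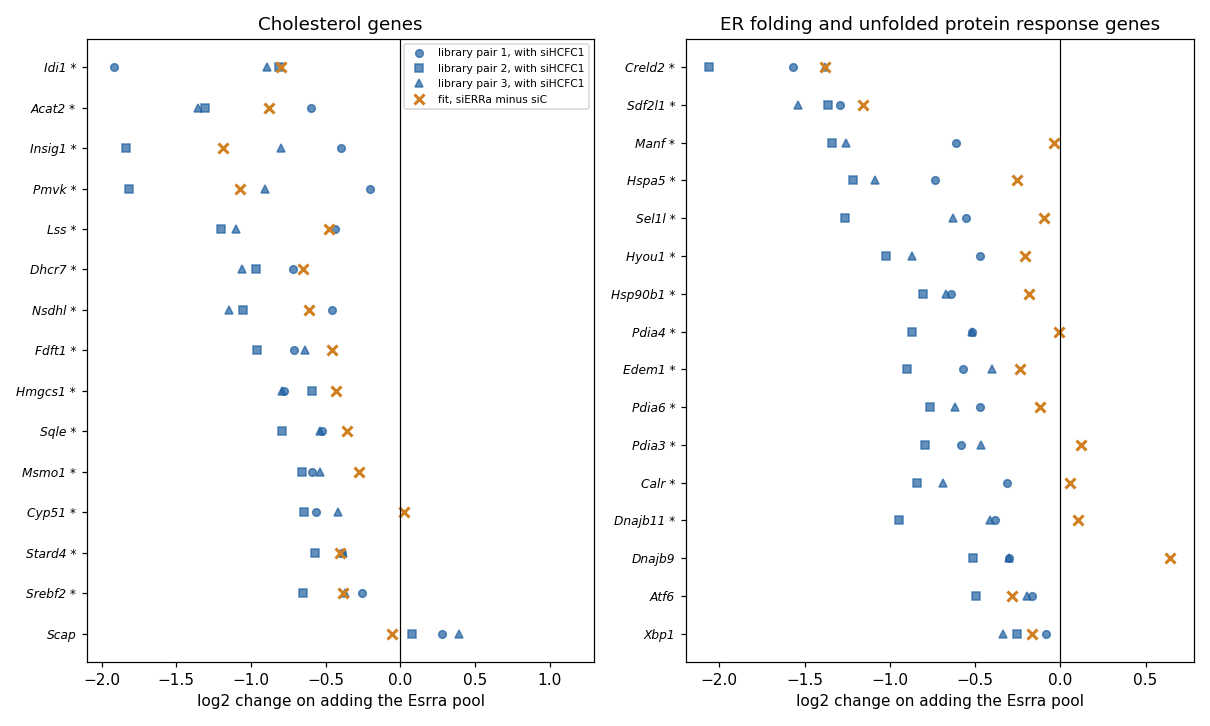
Log2 change on adding the Esrra pool for the 15 cholesterol genes (left) and 16 ER genes (right) that the text names, which favours called genes: blue markers give the 3 numbered pairs of combined and siHCFC1 libraries and orange crosses the fitted change of siERRa against siC, and an asterisk marks genes called lower in the combined group. Most cholesterol crosses lie below 0, while the crosses of many ER genes lie near 0.

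Fatty acid synthesis followed in part. Of 17 genes 5 were called lower and 0 higher, with a median of -0.30. Fads2, the delta-6 desaturase of polyunsaturated fatty acids, had 89.7, 130 and 91.1 CPM in siHCFC1 and 46.6, 50.8 and 45.3 CPM in the combined libraries, a log2 change of -1.11 ± 0.12 (adjusted p = 0.000171, edgeR) with no overlap. Fads1, the delta-5 desaturase, changed by -0.61, and Acly, which makes cytosolic acetyl-CoA from citrate, by -0.59. Acss2, another source of acetyl-CoA, and the desaturase Scd1 were the other two called.

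The integrated stress response, in which phosphorylated eIF2α favours translation of ATF4, had 7 of 25 genes called lower and 0 higher, with a median of -0.27. Gdf15, a stress-induced cytokine, had 138, 284 and 253 CPM in siHCFC1 and 84.6, 104 and 125 CPM in the combined libraries, a log2 change of -1.06 ± 0.13 (adjusted p = 0.000424, edgeR), and the groups did not overlap. Ddit3, the transcription factor CHOP, had 76.4, 99.4 and 260 CPM against 61.9, 45.0 and 69.2 CPM, a change of -1.13 (adjusted p = 0.00778). Here library 3 of siHCFC1 stood well above the other libraries. Slc7a5, an amino acid exchanger, changed by -0.77 and Mthfd2, a mitochondrial folate enzyme, by -0.93; both calls were lost in the fit of all 12 libraries, and that of Ddit3 with DESeq2 and the block. Of 37 aminoacyl-tRNA synthetases 2 were called higher (5.41%, against 1.09% of all tested genes), the mitochondrial Hars2 (1.11) and Ears2 (1.25), and 16 had a log2 change below 0 (median 0.08). Ears2 lost its call without library 1 and without library 2.

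Of 34 matrix and adhesion genes, 8 were called lower and 0 higher, 7 had a log2 change above 0 and the median was -0.21, with pair medians of -0.23, -0.33 and -0.05. Ctgf, a matricellular growth modulator and a familiar YAP target, had 1963, 2615 and 1453 CPM in siHCFC1 and 1042, 1047 and 715 CPM in the combined libraries, a log2 change of -1.09 ± 0.10 (adjusted p = 5.53e-05, edgeR) with no overlap; 23.2% of its exon bases overlap another gene, and its counts are uncertain to that extent. Lamc1, the laminin γ1 chain, changed by -0.80 and Itga3, an integrin chain that binds laminins, by -0.63. Outside that list, 2 secreted metalloproteinases that break down matrix were among the largest falls. Mmp13 (chromosome 9, 7272514 to 7283331, plus strand), a collagenase, had 66.1, 124 and 111 CPM against 16.7, 39.1 and 40.8 CPM, a change of -1.70 ± 0.13 (adjusted p = 1.04e-05). Mmp10, a stromelysin, had 25.3, 37.7 and 34.0 CPM against 6.10, 8.33 and 12.2 CPM, a change of -1.90 (adjusted p = 9.2e-05). Neither had any overlap between the groups.

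All 38 genes of mitosis and cytokinesis had a log2 change below 0, with a median of -0.33; 7 were called lower and 0 higher. Kif23, a kinesin of the central spindle, had 113, 91.0 and 90.7 CPM in siHCFC1 and 66.7, 56.9 and 63.6 CPM in the combined libraries, a change of -0.65 (adjusted p = 0.00594, edgeR), with no overlap. Cenpa, the centromeric histone, changed by -0.57 and the phosphatase Cdc25b by -0.45. Cdc25b lost its call without library 2. The count of calls rested on which libraries were used, at 4, 3 and 14 without libraries 1, 2 and 3. The 40 genes of S phase had a median of 0.01, with 3 called lower (E2f8 -0.66, Mcm6 -0.64 and Cdt1 -0.46) and 0 higher. The 3 are 7.5% of the list, against 2.45% of all tested genes called lower. Mcm6 lost its call without library 1, Cdt1 without library 2 and without library 3, and E2f8 in the fit of all 12 libraries.

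Few respiratory chain genes, the textbook field of ERRα, were called, though most had a log2 change above 0. None of 32 textbook ERR targets was called, and their median was 0.02, with single values from -1.49 to 0.67 and a lowest adjusted p of 0.0737. Of 37 complex I subunits, 33 had a log2 change above 0 and the median was 0.24, with pair medians of 0.28, 0.21 and 0.07. Called higher were 2 (5.41%, against 1.09% of all tested genes), Ndufb7 (0.79) and Ndufv3 (0.45). These calls were 0, 1 and 4 without libraries 1, 2 and 3. Of 26 genes of complexes II to IV 1 was called, Cox7c (0.55), of whose sequence words 24.5% are shared with other genes, and which lost the call without library 1 and without library 2. None of the 16 ATP synthase genes (median 0.11), 13 mitochondrially encoded subunits (0.13), 28 genes of pyruvate entry and the TCA cycle (0.06) or 77 mitochondrial ribosomal proteins (0.14) was called. The pairs differed in sign for several of these lists. Pair medians were 0.30, 0.15 and -0.04 for complexes II to IV and 0.22, 0.20 and -0.06 for ATP synthase. They were -0.09, 0.45 and 0.07 for mitochondrially encoded subunits and 0.17, 0.19 and -0.01 for mitochondrial ribosomal proteins. For fatty acid oxidation and ketone bodies 1 of 22 was called, Bdh1, the mitochondrial β-hydroxybutyrate dehydrogenase, which had 2.40, 2.65 and 2.85 CPM in siHCFC1 and 8.47, 7.26 and 7.08 CPM in the combined libraries. That is a change of 1.52 (adjusted p = 0.0226, edgeR), lost without library 1 and with no overlap.

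The receptors related to ERRα and their cofactors were not called in 16 of 16 cases (median 0.05). Esrrg, which encodes ERRγ, had 11, 0 and 0 counts in siHCFC1 and 24, 31 and 26 counts in the combined libraries (adjusted p = 0.277, edgeR). Ppargc1a, which encodes PGC-1α, had 16.5, 12.05 and 13.1 CPM against 6.92, 7.79 and 15.2 CPM (adjusted p = 0.307), and Ppargc1b, which encodes PGC-1β, had 5.71, 6.45 and 4.11 CPM against 1.63, 4.09 and 2.76 CPM (adjusted p = 0.221). Library 3 set Ppargc1a apart from its group, and the Ppargc1b libraries did not overlap. Without library 3 Ppargc1a was called lower, with a log2 change of -0.95 (adjusted p = 0.0378, edgeR) against -0.55 in the 3 pairs. Pprc1, Perm1, Nrip1, Ncor1, Ncoa1, Ncoa2, Ncoa3, Sirt1, Hdac3, Gabpa, Nrf1 and Rxra were also on the list; without Esrrg its changes ran from -1.001 in Ppargc1b to 0.28 in Pprc1. None of 29 HCFC1 partners was called either (median 0.05).

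**Figure D4:**
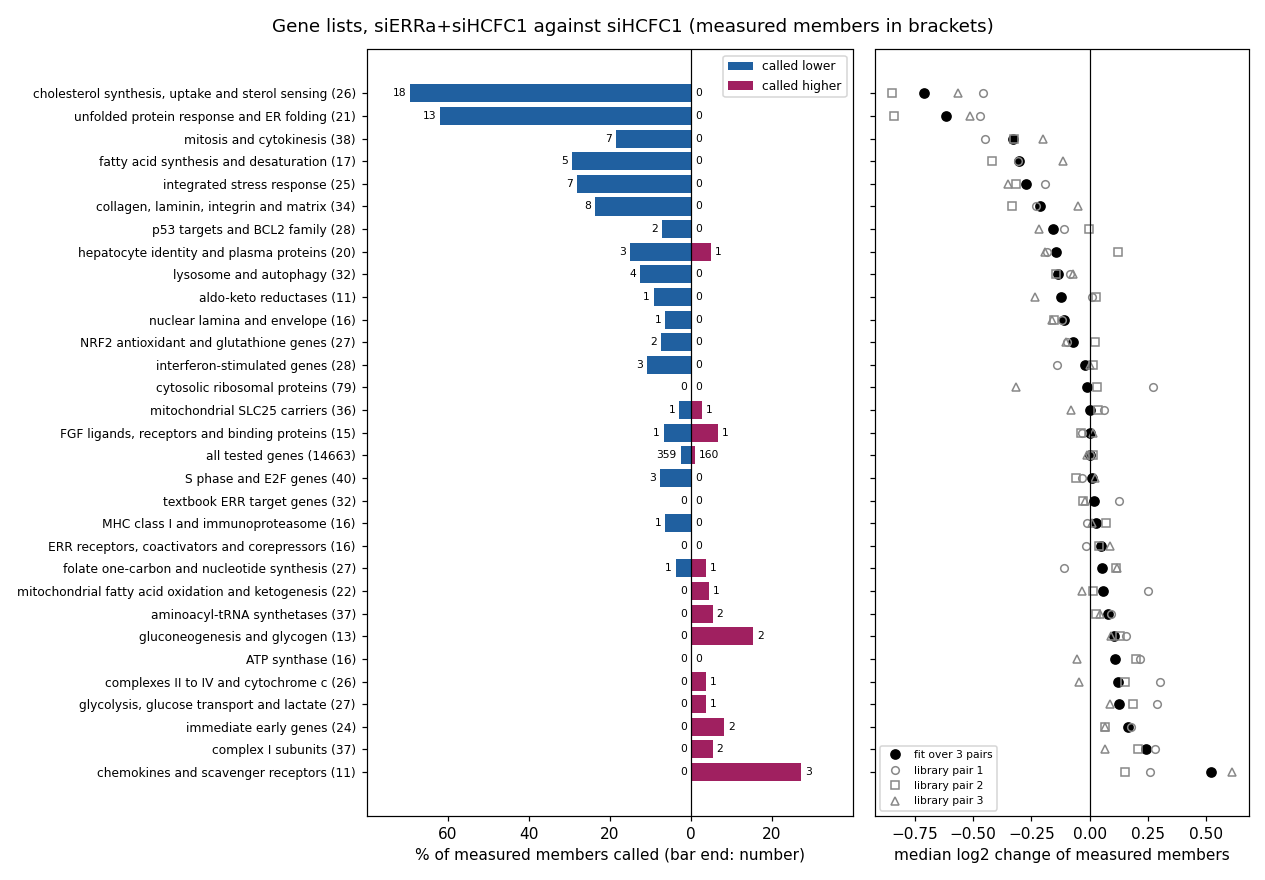
Share of each list's measured members called lower (blue) or higher (purple), with the number at the bar's end, and, on the right, the median log2 change of the measured members in the fit over 3 pairs (filled) and in each numbered pair (open). Cholesterol genes (18 of 26 lower) and ER folding genes (13 of 21 lower) lead the falls; the textbook ERR targets have no call.

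Secreted and hepatocyte genes moved both ways. Of 11 chemokine and scavenger receptor genes 3 were called higher and 0 lower, with a median of 0.52. Ppbp (chromosome 5, 90768518 to 90770063, plus strand), the chemokine CXCL7, had 103, 107 and 67.9 CPM in siHCFC1 and 178, 245 and 188 CPM in the combined libraries, a log2 change of 1.15 ± 0.13 (adjusted p = 0.000171, edgeR) with no overlap. Cxcl5, another ligand of CXCR2, changed by 1.27, lost without library 2, and Cx3cl1, fractalkine, by 0.52. Ccl20, the ligand of CCR6, lay outside the list and went down, from 3.74, 7.16 and 8.23 CPM to 1.59, 2.97 and 1.13 CPM (-1.78, adjusted p = 0.0392, lost without library 3). Of 20 hepatocyte identity genes 3 were called lower and 1 higher. Fgb, the fibrinogen β chain, changed by -0.96 and Apob, a lipoprotein component, by -0.63, while the fetal plasma protein Afp changed by 0.48. Apob was the called fall without the same direction in all 3 numbered pairs, and its groups overlapped. It lost its call without library 1, without library 2 and in the fit of all 12 libraries. Fibroblast growth factor genes had 1 call in each direction among 15. Fgfbp1, which frees FGFs from the matrix, had 123, 163 and 84.8 CPM against 28.4, 39.0 and 32.0 CPM (-1.87 ± 0.15, adjusted p = 1.04e-05), and the receptor Fgfr1 had 71.6, 122 and 51.7 CPM against 121, 192 and 123 CPM (0.88 ± 0.13, adjusted p = 0.0015). Fgfbp1 had no overlap; the Fgfr1 groups overlapped through library 2 of siHCFC1.

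Smaller groups of calls went as follows, beside 2.45% of all tested genes called lower and 1.09% called higher. The lysosomal genes had 4 of 32 called lower, among them the sialidase Neu1 (-0.65) and the membrane protein Lamp1 (-0.60), the latter lost without library 2. Interferon-stimulated genes had 3 of 28 called lower, Ifit2 (-1.55), Bst2 (-0.72) and Stat2 (-0.63), with a median of -0.02 and Bst2 lost without library 2, and 0 of 9 guanylate-binding proteins was called. Glycogen genes had 2 of 13 called higher, the synthase Gys1 (0.49, lost without library 2, without library 3 and in the fit of all 12 libraries) and Ppp1r3c (0.60), which targets a phosphatase to glycogen. The immediate early genes Egr1 (0.71) and Jun (0.64) were called higher, 2 of 24, but their levels depended on the library number more than on the group: Egr1 had 112, 81.3 and 1010 CPM in siHCFC1 and 168, 166 and 1466 CPM in the combined libraries. None of the 79 cytosolic ribosomal protein genes was called (median -0.01), and their pair medians of 0.27, 0.03 and -0.32 differed in sign.

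The largest rises among genes with a mean of at least 5 TPM in the higher group began with Tff3, a secreted trefoil peptide, which had 2.78, 1.64 and 3.60 CPM in siHCFC1 and 12.6, 9.25 and 14.6 CPM in the combined libraries (log2 change 2.22 ± 0.28, adjusted p = 0.000524, edgeR). Dsc2, a desmosomal cadherin, had 51.7, 48.7 and 19.1 CPM against 137, 154 and 95.2 CPM (1.78 ± 0.15, adjusted p = 2.02e-05). Prune2 (chromosome 19, 16956118 to 17223932, plus strand) had 68.1, 62.3 and 46.8 CPM against 197, 158 and 148 CPM (1.51 ± 0.11, adjusted p = 1.04e-05). None of these 3 had overlapping groups. Gulo, the last enzyme of vitamin C synthesis, rose by 1.35 with overlapping groups, and Bdh1, Abcb8 (1.58), Zfp932 (1.53, with 48.3% of its sequence words shared with other genes), Psd4 (1.47), Ccdc115 (1.36), Slc25a16 (1.32), Bpifb5 (1.31) and Fut2 (1.29) completed the 12. Of these, Slc25a16 lost its call without library 1 and, like Zfp932, without library 3, and Bpifb5 without library 2 and in the fit of all 12 libraries.

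The 12 largest falls were led by Glyat, the glycine N-acyltransferase of hepatocyte mitochondria, which had 5.85, 5.35 and 14.5 CPM in siHCFC1 and 0.777, 1.12 and 4.39 CPM in the combined libraries (-2.26, adjusted p = 0.00332, edgeR). Gc, the vitamin D-binding protein, had 3.79, 6.45 and 8.47 CPM against 1.52, 0.682 and 2.20 CPM (-2.13, adjusted p = 0.0224), lost without library 2 and in the fit of all 12 libraries. Both were low in every library and did not overlap between groups. Nrcam, a neuronal cell adhesion molecule, had 49.4, 84.9 and 26.8 CPM against 14.9, 16.4 and 14.0 CPM (-1.69, adjusted p = 0.000544), also without overlap. Pnliprp2 (-1.77), the embryonic globin Hbb-y (-1.75, lost without library 1, with limma-voom and in the fit of all 12 libraries) and the organic anion transporter Slco4a1 (-1.70) stood beside Mmp10, Mmp13, Fgfbp1, Ccl20 and Creld2, described above; Esrra itself changed by -1.73.

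The genes called on adding the Esrra pool to Hcfc1 knockdown mostly had the same sign when the pool was given to cells with the control pool, in 6 libraries not used in the comparison above. The values of siERRa against siC come from a fit of all 12 libraries with the same block, in which 1625 of 15965 genes were called (10.2%), 669 higher (4.19%) and 956 lower (5.99%). The spread and block terms of that fit also draw on the 6 libraries of the main comparison, so its calls are not fully independent of them. Of the 160 genes higher in the combined group, 153 were above 0 in siERRa against siC and 94 were called higher there (58.8%); of the 359 lower, 338 were below 0 and 225 were called lower (62.7%). Only 1 gene of each set was called in the opposite direction. The median changes were 0.75 with Hcfc1 knockdown and 0.61 without it for the rises, and -0.64 and -0.58 for the falls. The members were selected on the first of these values, which favours the larger size there. Selected the other way round, the 669 genes higher in siERRa had medians of 0.64 without and 0.26 with Hcfc1 knockdown, and 94 were called there (14.1%); for the 956 lower genes the medians were -0.64 and -0.32, with 225 called (23.5%). Across 14643 genes, which are not independent replicates, the 2 sets of changes had a Pearson r of 0.28 and a Spearman rho of 0.36.

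**Figure D5:**
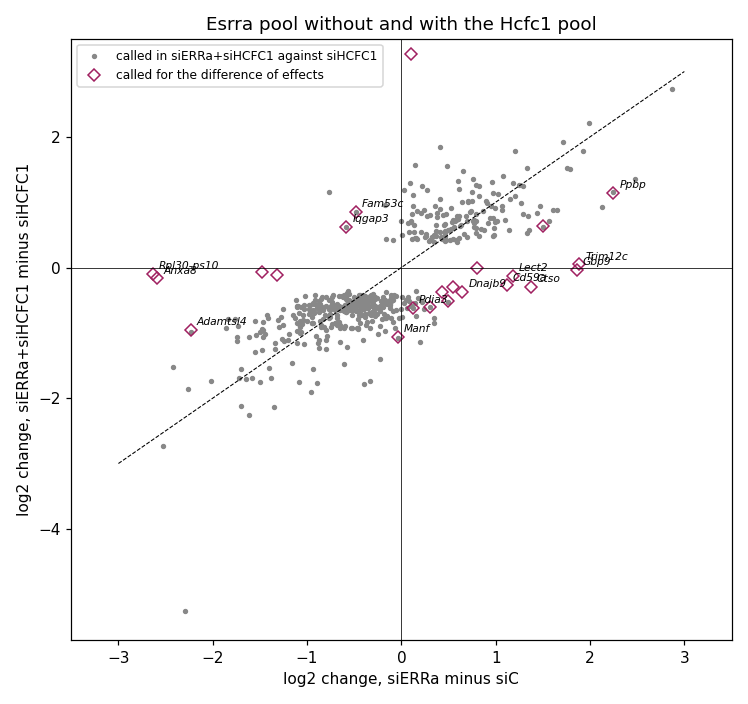
Log2 change on adding the Esrra pool to the control pool (x axis) and to the Hcfc1 pool (y axis) for the 519 called genes (grey) and the 23 genes called for the difference of the changes (purple diamonds); the dashed line marks equal changes. Most grey points share the sign of both changes, and Manf, Pdia3 and Dnajb9 lie lower with the Hcfc1 pool than without it.

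Without Hcfc1 knockdown the gene groups had the following changes. Cholesterol genes had a median of -0.71 with it and -0.42 without it, and 15 of 26 were called lower in siERRa against siC. The ER genes had a median of -0.62 with it and -0.12 without it, where 2 were called lower and 1 higher; against siC, the same list stood 0.62 higher in siHCFC1 with 15 genes called higher, where 24.9% of all tested genes were called, 11.7% higher and 13.2% lower. That last comparison shares the siHCFC1 libraries with the main one, and high values in those libraries raise the one and lower the other. Mitosis genes had the larger shift without Hcfc1 knockdown, -0.69 with 30 of 38 called lower, against -0.33 with it. The integrated stress response had -0.54 with 11 called lower, against -0.27. Complex I subunits had a median of 0.25 without Hcfc1 knockdown, with 5 of 37 called higher and 0 lower, against 0.24 with it. Complexes II to IV had 0.11 without it, with 3 of 26 called higher and 1 lower, against 0.12 with it.

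A test of the difference between the 2 additions, in the 12-library fit, called 23 genes (0.144%), 8 of them with a higher (0.0501%) and 15 with a lower value (0.094%) in the Hcfc1 knockdown. Of the 21 ER genes, 20 had a difference below 0 (median -0.53) and 3 were called. Among all genes tested in the main comparison, 6844 had a difference below 0 and 7799 above 0 (median 0.03). Other lists were also one-sided. Above 0 were 35 of 38 mitosis genes (median 0.32). Below 0 were 12 of 13 mitochondrially encoded subunits (-0.40) and 8 of 9 guanylate-binding proteins (-0.93). In the 12-library fit Manf changed by -0.04 without and -1.06 with Hcfc1 knockdown, a difference of -1.03 (adjusted p = 0.0348, edgeR). Dnajb9, an ER co-chaperone, had a difference of -1.02 (adjusted p = 0.0225) and Pdia3 one of -0.74 (adjusted p = 0.0327). For Hspa5 the changes were -0.25 and -1.02, and the difference of -0.77 did not pass (adjusted p = 0.052). None of the 26 cholesterol or 38 mitosis genes was called for a difference. The count was unstable: it was 0 without library 1, 1 without library 2 and 43 without library 3, 0 without the block and 209 with DESeq2 and the block.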

How the data were processed

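RNA sequencing of 12 Hepa 1-6 libraries was analysed. Per the submitters' processing notes, the mm10 genome was used, with HISAT2 2.0.5 and featureCounts 1.5.0-p3, and DESeq2 1.20.0 is named as well. The authors deposited whole-number counts per gene, TPM, log2 fold changes and p-values for their own comparisons, which were copied, not refitted. Of the TPM columns, those numbered 4 were read as a replicate of their group, and 60 other columns were not used. Genes passing filterByExpr were tested with edgeR 4.0.16 (R 4.3.3; TMM, glmQLFit, glmQLFTest) with library number as a block, which leaves 2 residual degrees of freedom, and with Benjamini-Hochberg adjustment at 0.05. The block was fixed for this comparison; the correlations of same-numbered libraries were 0.09, 0.34 and 0.29. DESeq2 1.42.0 and limma-voom 3.58.1 were alternatives. No 2 libraries of a group were copies (lowest chi-square per degree of freedom 55.7). Wilson 95% intervals of the mitochondrial shares spanned 0.0288 points or less and cover counting error alone.

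The comparison, gene lists and tests were chosen with earlier results of these data known. Named were Esrra, Hcfc1, the ERR cofactors, the 12 largest rises and falls (mean of at least 5 TPM, one direction in 3 pairs, no predicted name), up to 3 called members of each list and the 5 largest differences of effect each way (at least 5 TPM in a group, no predicted name); the further cholesterol, ER, fatty acid and Ppbp, Dnajb9, Pdia3 and Zfp111 values, and the genes most changed by the Hcfc1 pool, were named after their values were seen. Promoter windows came from RefSeq (GRCm38.p6), and 10057 tested genes had one. The motif search for the ER stress and sterol elements was chosen after the data were seen. Some genes that the rule names are not reported here.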

Additional observations from a re-analysis of the deposited data

Results flagged for a closer look

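The test of whether the Esrra pool acted differently with and without the Hcfc1 pool called 23 genes, and values are given here for only part of them. It took the change in the combined group against siHCFC1 minus the change in siERRa against siC (edgeR on 12 libraries with the block). Given are the 5 largest log2 differences each way (at least 5 TPM in a group, no predicted name). Ppbp, Manf, Dnajb9 and Pdia3 were added to these and were not picked by size. A lower value with the Hcfc1 pool was found for the GTPase Gbp9 (-1.89), Trim12c (-1.83, with 48.1% of its sequence words shared with other genes), the protease Ctso (-1.66), the complement inhibitor Cd59a (-1.39), the hepatokine Lect2 (-1.31), Ppbp (-1.10), Manf (-1.03), Dnajb9 (-1.02) and Pdia3 (-0.74). A higher value was found for the ribosomal pseudogene Rpl30-ps10 (2.54, with 96.8% of its words shared, so that its reads may belong to other genes), the annexin Anxa8 (2.42), Fam53c (1.33), Adamtsl4 (1.28) and Iqgap3 (1.21). Csn3, Nucb2, Atp1b1, B2m, Enpp2 and Dram2 were also called for a lower value, each with a larger difference than Pdia3. Dpp9 and Gm12191 were also called for a higher value. The largest difference of the 23 called genes, 3.17, was that of Zfp111, which lay below the 5 TPM limit for naming and is given after its values were seen (3.26 with and 0.10 without the Hcfc1 pool).

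Gbp9 averaged 2.84 CPM under the control pool and 10.2 CPM under the Esrra pool (n = 3). With the Hcfc1 pool it averaged 29.2 CPM, and 29.1 CPM when both pools were given. Ppbp rose in both settings, by 2.25 on the log2 scale without and 1.15 with the Hcfc1 pool. Adamtsl4, a matrix protein, fell in both, by 2.23 and by 0.98. The cause of these differences was not tested.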

How the results depend on the processing

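The number of called genes, 519, moved to 0 without the replicate block (772 at an unadjusted p under 0.05), to 47 with DESeq2 and no replicate block (a setting added after seeing the data), to 796 with limma-voom, to 936 with no low-count filter, and ran from 329 to 708 when one numbered pair was left out. DESeq2 with the block gave 761, RLE scaling 516, mitochondrial genes left out 562, a CPM of at least 1 in 3 libraries 633 and all 12 libraries 562. The same-numbered libraries correlated at 0.09, 0.34 and 0.29, so not every pair passed 0.1, although 6 of 6 libraries correlated best with their own number. For siERRa against siC the count was 70 without the block and 761 to 1130 with a pair left out, and for siHCFC1 against siC 1066 and 2495 to 3363. The difference of effects (23) gave 0 without the block (439 at an unadjusted p under 0.05), 209 with DESeq2, 204 with no low-count filter and 0 to 43 with a pair left out. The extended ERR site in place of the half-site gave 0 for the called-lower promoters. Of 92 called genes that are named, 9 lost their call in the fit of all 12 libraries and 23 without library 2. All 92 lost it in edgeR without the block. With DESeq2 and no block 69 of 91 lost it, among them Hspa5, Hsp90b1, Dhcr7 and Hmgcs1, while Creld2, Manf and Lss kept it. None of the called genes changed sign. Among the uncalled, the log2 change with a pair left out ran from -0.0236 (without library 3) to 0.165 for Nrip1, -0.0283 (without library 3) to 0.129 for Ncor1, -0.667 to 0.0208 (without library 2) for Ncoa1, -0.859 to 0.203 (without library 1) for Sirt1, -0.024 (without library 1) to 0.185 for Rxra, -0.439 to 0.24 (0.0778 without library 2 and 0.24 without library 3) for Rpl30-ps10, -0.129 to 0.106 (without library 1) for Gbp9, -0.212 (without library 3) to 0.255 for Trim12c and -0.354 to 0.0656 (without library 2) for Lect2. The cause of these moves was not tested. Leaving out a pair leaves 2 pairs and 1 residual degree of freedom.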

Other observations

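Gapdh, a glycolytic enzyme often used as a reference gene, varied between libraries of the same group. It had 848, 137 and 932 CPM in siHCFC1 and 1088, 172 and 70.1 CPM in the combined libraries (log2 change -0.83, adjusted p = 0.513, edgeR), and 62.3, 115 and 82.5 CPM in siC against 657, 568 and 1350 CPM in siERRa. No group order was read from it.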
